A study of Rattus norvegicus with 24 samples.

Results

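The levels of potassium channel genes were measured in left dorsal striatum, the forebrain target of midbrain dopamine neurons, from male rats of the Long Evans strain aged 80 to 90 days. All rats had 1 injection on each of 5 days and were killed 24 h after the last. Saline rats received only saline, acute rats received saline on 4 days and MDPV (methylenedioxypyrovalerone, a synthetic cathinone that blocks dopamine and noradrenaline uptake) on the last day, and chronic rats received MDPV on all 5 days, at 1 mg/kg. The 24 one-colour arrays comprised 8 per group, and arrays whose titles share a letter were averaged because the series design states 6 per group, which gave 18 units, 6 per group. Nothing shows that arrays of a shared letter came from 1 rat, so p-values measure the spread between these units. With 24 arrays and the unit as a random block, the consensus correlation within units (limma) was -0.37. Arrays of a shared letter were thus less alike than other arrays of their group. Averaged and single arrays had equal weight in the fits, so SEs and p-values rest on units of unequal kind. The genes were those whose array name begins with Kcn, other than Kcnj13, with a probe that passed the scanner's test for signal well over background on a share of 0.5 or more of the arrays in some group. For each gene the brightest such probe was used. Of 92 such names on the array, 74 were kept, and they stand among 20902 genes tested.

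Potassium channels let potassium leave the cell and so set the resting potential, shape and repetition of the action potential. Their pores are voltage-gated, calcium- or sodium-activated, inwardly rectifying, or open at rest as leak channels, and auxiliary and modulatory subunits alter their gating and place in the membrane. In the striatum, projection neurons are known for a strong inward rectifier that holds them at a negative resting potential and for A-type currents that delay their firing.

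Of the pore genes, 26 of 30 voltage-gated, 7 of 7 calcium- or sodium-activated, 11 of 14 inward rectifier and 9 of 14 leak genes were kept. All 10 modulatory genes, which encode subunits that form no channel alone and join other voltage-gated subunits, were kept, and 11 of 17 auxiliary or regulatory genes. The 18 names without a kept probe were Kcna7, Kcna10, Kcne1, Kcne3, Kcne4, Kcnh5, Kcnh8, Kcnj1, Kcnj10, Kcnj15, Kcnk3, Kcnk9, Kcnk10, Kcnk15, Kcnk18, Kcnmb1, Kcnmb3 and Kcnrg. Among these, the probe for Kcnk3, an acid-sensitive leak channel, was well above background on 9 of 24 arrays and that for Kcnj10, the main inward rectifier of astrocytes, on 5. Of the 74 kept genes, 55 were well above background on all 24 arrays, and Kcna3, a Shaker-type gene best known from T lymphocytes, was so on 9.

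Parts of the probes on which the results below turn are shown first, as the first 30 bases of each 60-base probe. Kcne2 had the largest acute difference, and its 2 probes lie at chr11:32290711-32290770 (the one in use, with the higher mean) and chr11:32289667-32289725 of the rat build rn4 that the file headers use. The Kcnk1 probes, at chr19:56255238-56255297 (in use) and chr19:56253634-56253693, gave different chronic values. Kcnj2 and Kcnj16, at chr10:100579807-100579866 and chr10:100517281-100517340, are neighbours, of which saline replicate 4 had the highest Kcnj16 and the lowest Kcnj2 level of all arrays.
Kcne2 probe in use: gtgactacatgagatgataccttagtcatt
Kcne2 other probe: tcaccctgataaagaacgagagtccatctg
Kcnk1 probe in use: caggttaatctgagaattctacgtttagaa
Kcnk1 other probe: atgtgaagaaagacaaggatgaagaccaag
Kcnj2 probe in use: gttaagctccttatcactctgatgtcaagg
Kcnj16 probe in use: ctttccaagcctggtaaagcataacaatgt

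Per array, 50.7% to 71.3% of the 58717 spots passed that test, no spot was saturated, and median signal over background was 6.45 to 10.4. The number of arrays limits the precision. The arrays lay on 3 slides, with 3 saline, 2 acute and 3 chronic arrays on each of slides 1 and 2 and with 2, 4 and 2 on slide 3. Markers of neighbouring tissue separated some arrays. The choroid plexus level, the mean over 7 measured of 14 listed markers, ran from -5.65 through a median of -2.78 to 0.10 in saline, from -5.32 through -3.58 to -2.28 in acute and from -6.38 through -5.34 to 0.20 in chronic arrays. Saline replicates 4 and 5 and chronic replicate 8 had the 3 lowest levels of cortical excitatory neuron markers (-4.05, -4.53 and -4.46) together with choroid plexus levels of -0.64, 0.10 and 0.20. Saline replicate 4 also had the lowest striatal projection neuron level of all arrays, 0.92. All levels are log2 processed signals minus the 75th percentile of the array, and a level of 1 gene is never set against that of another, since each probe has its own response.

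The potassium channel genes varied more between arrays, in the median, than genes in general. The median SD over 24 arrays was 0.38 log2 units for the 74 genes and 0.28 for all genes tested, and 58 of the 74 lay over the latter. Among genes well above background on every array the medians were 0.34 for 55 potassium channel genes and 0.22 for 14163 genes. The widest spread was that of Kcnk16, a leak channel best known from pancreatic islets, with an SD of 1.18. Kcns1 (SD 1.09) and Kcns3 (SD 0.81), modulatory subunits, Kcnj16 (SD 1.09), which pairs with the astrocytic inward rectifier, and Kcne2 (SD 1.08), a small auxiliary subunit abundant in choroid plexus epithelium, came next. The GIRK-type rectifier gene Kcnj6 (SD 0.68), Kcna3 (SD 0.67), the sodium-activated channel gene Kcnt2 (SD 0.65), Kcnq1 (SD 0.64) and the beta subunit gene Kcnab3 (SD 0.63) completed the 10 widest. The smallest SDs were 0.17 for the SK channel gene Kcnn2, 0.18 for the beta subunit gene Kcnab2, 0.19 for Kcna6, 0.20 for Kcng2 and 0.20 for Kcnk1. Of the 10 widest, Kcnj16 was well above background on 19 arrays, Kcnj6 on 20 and Kcna3 on fewer still, though Kcne2 was so on all 24. Kcnn2, Kcnab2, Kcng2 and Kcnk1 were so on all 24. How far the ranking follows dim signal was not tested.

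**Figure D1:**
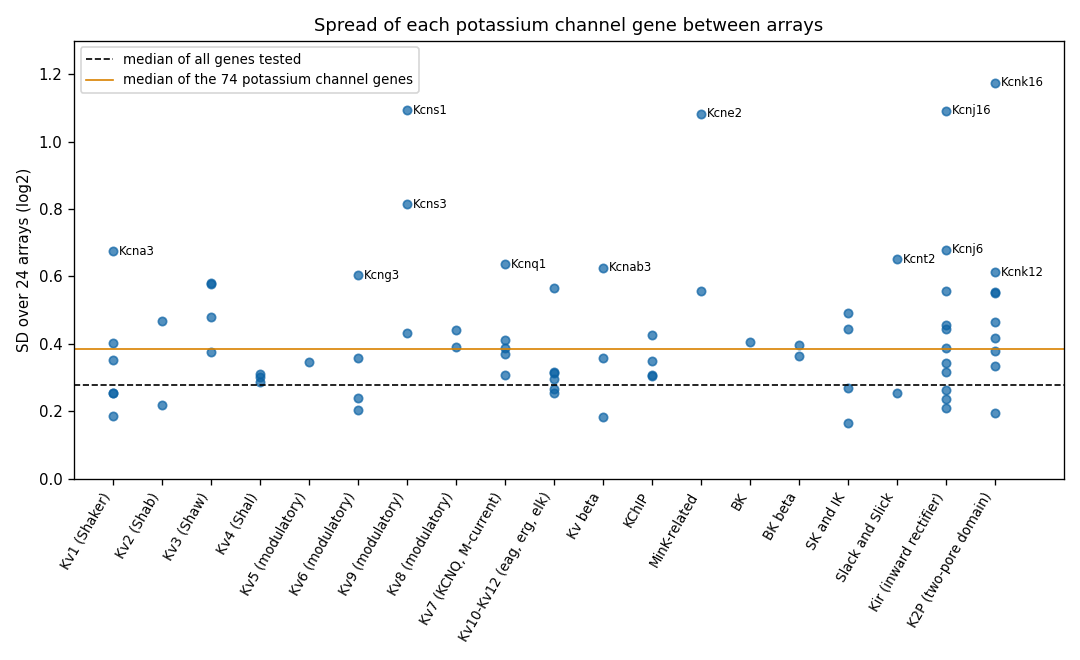
SD of each of the 74 potassium channel genes over 24 arrays (log2 units, vertical axis) by subfamily, 1 point per gene. The dashed line is the median SD of all genes tested (0.28) and the solid line that of the 74 genes (0.38), and Kcnk16, Kcns1, Kcnj16 and Kcne2 lie over 1.

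No potassium channel gene passed an adjusted p of 0.05 (limma, Benjamini-Hochberg over 20902 genes) between any pair of groups or in an F test over all 3. The share of all genes that passed was 0% in each of these 4 tests, so a count of 0 is that of the array as a whole. At an unadjusted p under 0.05, 3 of 74 genes passed for acute against saline, all with a lower acute level, where 1.59% of all genes passed. For chronic against saline 1 gene passed, against 2.87% of all genes, for chronic against acute 0, against 2.48%, and in the F test 0, against 1.71%. With 24 arrays and slide as a block, 2 genes passed at the unadjusted threshold in each comparison. They were Kcne5 and Kcnh6 for acute against saline (1.497% of all genes), Kcne5 and Kcnab2 for chronic against saline (2.36%) and Kcna6 and Kcng3 for chronic against acute (2.92%), so which genes passed depends on the model. The 8 arrays of 1 group lay apart from the 8 of another for 0 of the 74 genes in all 3 comparisons, and the share of all genes was 0% for acute and for chronic against saline and 0.00478% for chronic against acute.

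Directions were mixed. Acute levels exceeded saline levels for 45 of 74 genes (60.8%, against 49.1% of all genes), with a median difference of 0.05 against -0.002. Chronic levels exceeded saline levels for 41 (55.4%, against 56.5%), with a median of 0.02 for both the 74 and all genes, and acute levels for 40 (54.1%, against 56.5%), with a median of 0.01 against 0.02. The 95% interval of a difference reached, in the median, 0.42 log2 units to either side. The interval lay within 1 log2 unit of 0, a 2-fold change, for 68, 67 and 68 of 74 genes in the 3 comparisons in the order just given.

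**Figure D2:**
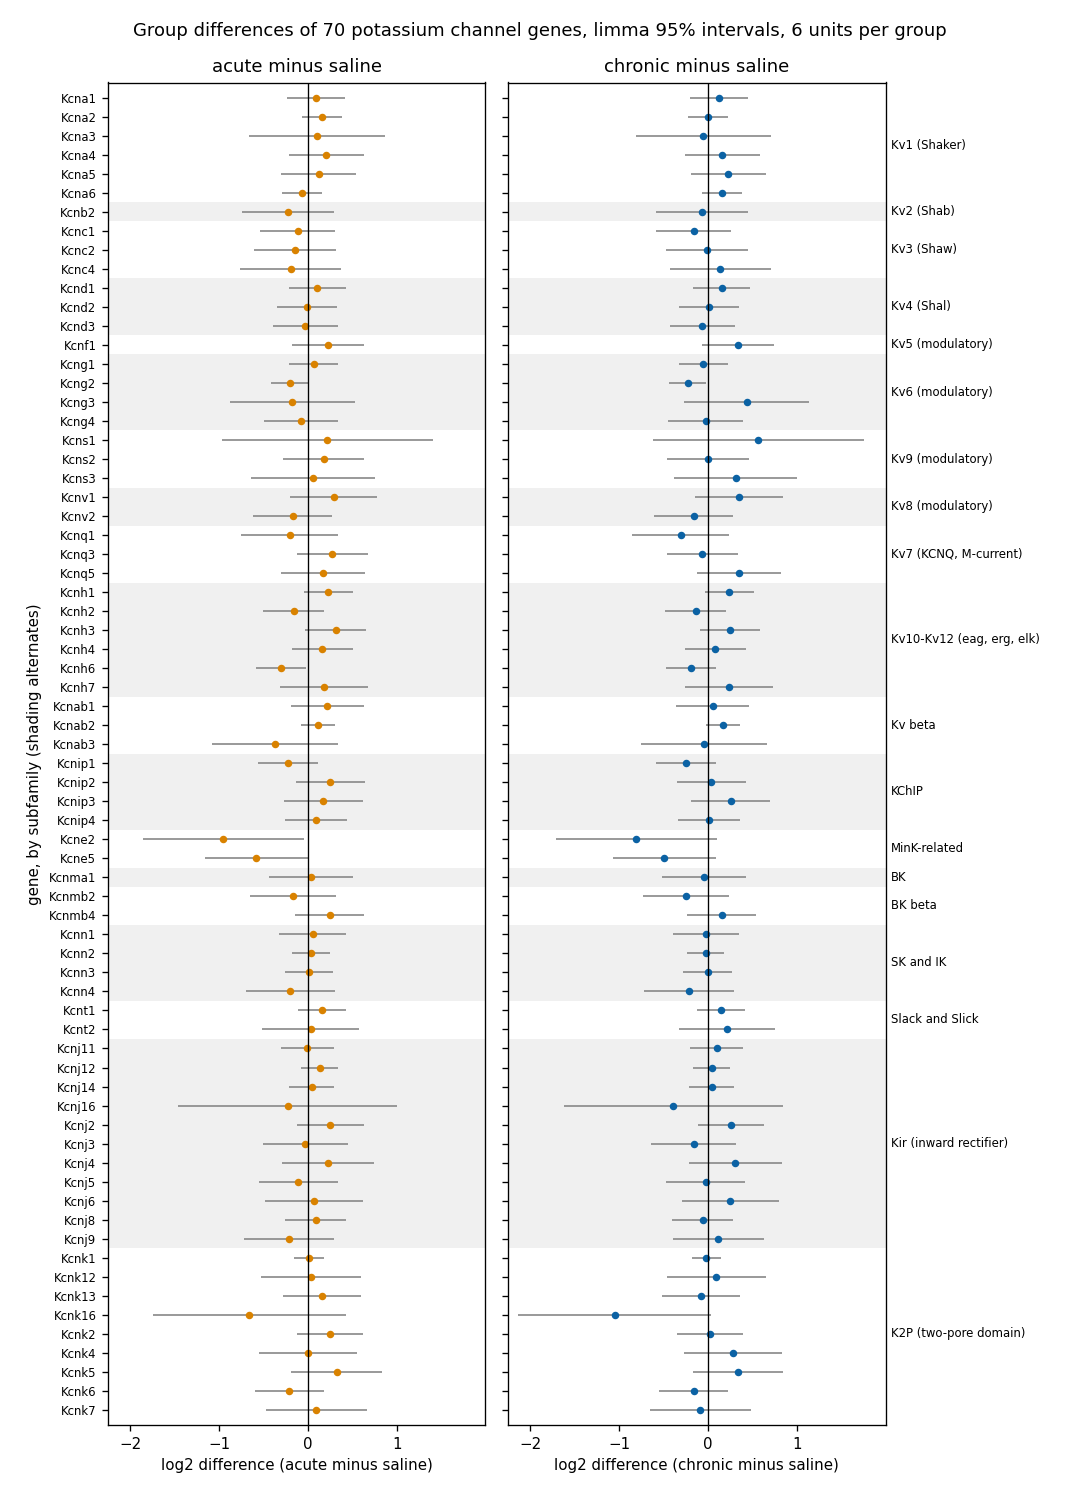
Difference in log2 level from saline (horizontal axis) of 70 potassium channel genes in acute (left) and chronic (right) rats, grouped by subfamily. Points are limma estimates and bars 95% intervals from 6 units per group, and the intervals span 0 except those of Kcne2, Kcne5 and Kcnh6 (acute) and Kcng2 (chronic), which lie below it.

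Among the 26 voltage-gated pore genes, 15 had a higher acute and 16 a higher chronic than saline mean. The largest-ranked of them in the acute comparison was Kcnh6, an erg-type channel gene, at -3.97, -3.65 and -3.07 (lowest, median and highest of 8 arrays) in saline, -4.34, -3.97 and -3.64 in acute and -4.10, -3.77 and -3.65 in chronic rats. The acute arrays lay lower as a set but overlapped the saline ones. Kcnh6 differed by -0.30 (SE 0.13, 95% interval -0.58 to -0.02, limma adjusted p = 1.00) in acute and by -0.19 (SE 0.13) in chronic rats. Its relatives Kcnh1, an eag-type channel gene, and Kcnh3, an elk-type one, pointed the other way. Kcnh1 ran over -0.36, 0.51 and 0.77 in saline, 0.44, 0.63 and 0.76 in acute and 0.06, 0.67 and 0.86 in chronic rats, with differences of 0.23 (SE 0.13) and 0.24 (SE 0.13). Kcnh3 ran over 0.56, 1.60 and 1.94 in saline, 1.45, 1.77 and 2.10 in acute and 1.46, 1.74 and 2.01 in chronic rats, with differences of 0.31 (SE 0.16) and 0.25 (SE 0.16). Its other probe gave 0.20 and 0.48 (SE 0.22). In both genes the lowest value of all 24 arrays was that of saline replicate 4, and the upper parts of the groups coincided.

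In the Shaker subfamily, which sets firing threshold and axonal excitability, 5 of 6 genes had a higher mean in each MDPV group, none past either threshold. Kcna6 was narrow in acute rats, at -0.10, -0.05 and -0.02, against -0.46, 0.02 and 0.35 in saline and -0.05, 0.16 and 0.41 in chronic rats. Chronic exceeded acute by 0.22 (SE 0.11, limma adjusted p = 0.96), and by 0.20, 0.21 and 0.25 within the 3 slides. Kcna1, whose subunit opens at low voltages in axons, ran over 0.93, 1.23 and 1.76 in saline, 0.97, 1.38 and 1.68 in acute and 1.13, 1.31 and 1.96 in chronic rats. Kcna2, a partner of Kcna1 in axonal channels, ran over -1.04, -0.50 and -0.30, -0.68, -0.42 and 0.00, and -0.97, -0.59 and -0.23 in the same order. The groups of both genes overlapped over nearly their whole range.

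The Shaw genes encode fast delayed rectifiers of fast-spiking interneurons. Kcnc1 ran over -2.29, -1.79 and -0.39 in saline, -2.16, -1.61 and -1.25 in acute and -2.20, -1.67 and -1.44 in chronic rats. The highest array was saline replicate 4, and the groups otherwise overlapped. For Kcnd2, the pore of the somatodendritic A-type current, differences from saline were -0.01 and 0.01 (SE 0.16), and for Kcnd3, its relative, -0.03 and -0.06 (SE 0.18).

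The M-current genes Kcnq3 and Kcnq5 encode slow channels that muscarinic receptors close. Kcnq3 stood at -0.39, 0.04 and 0.71 in saline, 0.16, 0.44 and 0.84 in acute and -0.51, -0.02 and 0.88 in chronic rats. All acute arrays lay above 0, while saline and chronic arrays lay on both sides of it and the highest array was chronic. Acute exceeded saline by 0.27 (SE 0.19) and the chronic minus acute difference was -0.34 (SE 0.19). Both of these Kcnq3 differences kept their sign in all 36 alternative settings. Some of these settings could not change them, such as leaving out a unit of the group not compared. Kcnq5 differed from saline by 0.17 and 0.35 (SE 0.23) in acute and chronic rats.

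Of the 10 modulatory genes, 6 had a higher mean than saline in each MDPV group. By the probes in use, Kcng2 was the only potassium channel gene with an unadjusted p under 0.05 for chronic against saline over 18 units. It stood at -1.57, -1.33 and -0.98 in saline, -1.69, -1.52 and -1.26 in acute and -1.79, -1.53 and -1.11 in chronic rats. The MDPV arrays reached from below every saline array into the upper part of the saline range, and the difference was -0.20 (SE 0.10) in acute and -0.23 (SE 0.10, 95% interval -0.44 to -0.02, limma adjusted p = 1.00) in chronic rats. With 24 arrays and slide as a block the chronic difference was -0.17 and did not pass at an unadjusted p of 0.05. A further Kcng2 probe gave -0.17 for chronic against saline. Among probes not in use, those of Kcnk1 (0.40) and Kcnh3 (0.48) had a limma unadjusted p under 0.05 in that comparison. Kcng3 was higher in chronic than in acute rats by 0.61 (SE 0.33), where chronic replicate 7 at -2.50 stood above every other array. Kcnf1 ran over -4.34, -3.12 and -2.92 in saline, -3.59, -3.10 and -2.87 in acute and -3.36, -3.03 and -2.73 in chronic rats (chronic difference 0.33, SE 0.19), and Kcnv1 over -3.07, -1.36 and -1.05, -1.56, -1.38 and -1.13, and -1.54, -1.29 and -1.08 (0.35, SE 0.23). Saline replicate 4 was lowest in both genes, the highest Kcnf1 arrays were chronic ones, and the groups overlapped. Kcns1 spanned -6.26 to -2.64 in saline, -5.63 to -2.82 in acute and -5.10 to -2.34 in chronic rats, and its chronic difference of 0.57 had an SE of 0.56.

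The largest acute difference was that of an auxiliary gene. Kcne2 had levels of -4.29, -3.00 and -0.66 in saline, -4.03, -3.71 and -2.68 in acute and -4.18, -3.77 and -0.54 in chronic rats. The high values were those of saline replicates 3, 4 and 5 and chronic replicate 8, the lowest saline array was the lowest of all, and the full range over 24 arrays was 13.5-fold. Kcne2 differed by -0.95 (SE 0.43, 95% interval -1.86 to -0.04, limma adjusted p = 1.00) in acute and by -0.81 (SE 0.43) in chronic rats, and its other probe gave -0.66 (SE 0.30) for acute. Within the 3 slides the acute difference was -0.97, -1.83 and 0.30 and the chronic one -0.99, -1.82 and 1.78. Without saline replicate 4 the acute difference was -0.76. With the choroid plexus level as a covariate, chosen after seeing the data, it was -0.36, the chronic one was 0.22 and the chronic minus acute difference was 0.58, none past the adjusted threshold.

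Kcne5, a related small subunit, had levels of -4.40, -4.04 and -3.28 in saline, -5.05, -4.65 and -4.00 in acute and -5.18, -4.50 and -3.52 in chronic rats. The lower part of both MDPV groups lay below every saline array, and the upper part overlapped. The acute difference was -0.58 (SE 0.28, limma adjusted p = 1.00) and was -0.71, -0.22 and -1.01 within the slides, the chronic one was -0.49 (SE 0.28), and another probe gave -0.25 for acute. Kcnab2, whose beta subunit binds Shaker-type channels, rested at 3.04, 3.49 and 3.69 in saline, 3.38, 3.57 and 3.68 in acute and 3.41, 3.66 and 3.75 in chronic rats. The lowest arrays were saline ones and the upper ends coincided, and the chronic difference was 0.17 (SE 0.09). Kcnab1, another beta subunit gene, differed by 0.22 and 0.05 (SE 0.20). The KChIP genes encode calcium-binding partners of A-type channels. Kcnip1 differed by -0.22 and -0.25 (SE 0.16), Kcnip2 by 0.25 and 0.04 (SE 0.18) and Kcnip3 by 0.17 and 0.25 (SE 0.21) in acute and chronic rats. Kcnmb4, the neuronal beta subunit of the BK channel, differed by 0.25 and 0.15 (SE 0.18).

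**Figure D3:**
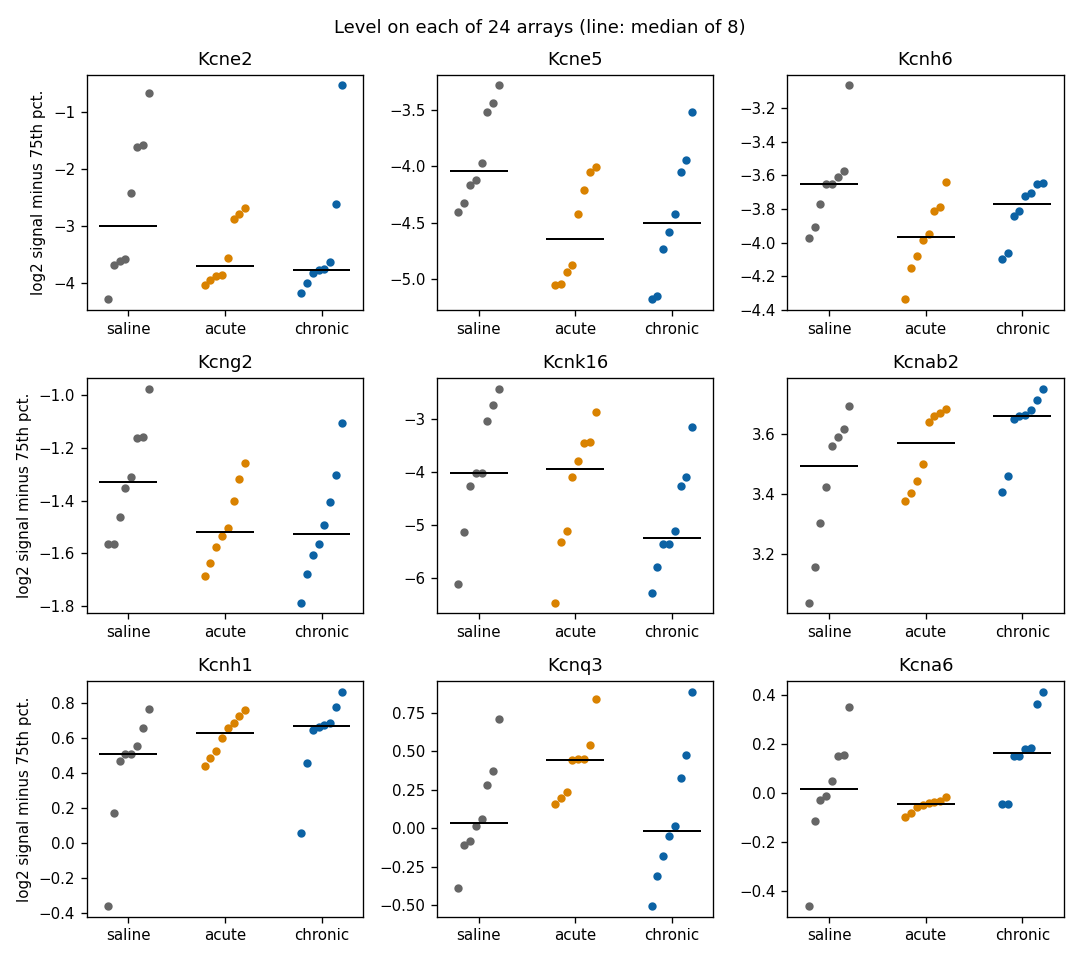
Level (log2 processed signal minus the 75th percentile of the array) on each of 24 arrays for the 9 genes named by their small p or by their values above, 8 points per group with the median as a line. The groups overlap in every panel, and the acute arrays of Kcna6 lie between -0.10 and -0.02.

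Of the 7 calcium- or sodium-activated pore genes, 6 had a higher acute and 2 a higher chronic mean than saline. Kcnma1, the BK channel pore, ran over -4.40, -3.23 and -2.87 in saline, -4.06, -3.36 and -2.86 in acute and -3.97, -3.34 and -3.03 in chronic rats, with differences of 0.04 and -0.04 (SE 0.22). The SK genes, whose channels carry the afterhyperpolarization, were close to saline. Kcnn2 differed by 0.03 and -0.03 (SE 0.10; 95% interval in acute rats -0.18 to 0.24) and Kcnn3 by 0.01 and -0.005 (SE 0.13). Kcnt1, a sodium-activated channel gene, stood at 1.11, 1.65 and 2.12 in saline, 1.38, 1.76 and 1.91 in acute and 1.31, 1.72 and 1.98 in chronic rats, with differences of 0.16 and 0.14 (SE 0.13). The saline arrays enclosed those of both MDPV groups.

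Of the 11 inward rectifier genes, 6 had a higher acute and 7 a higher chronic mean. Kcnj2 and Kcnj4 encode strong rectifiers of projection neurons. Kcnj2 ran over -1.60, -0.71 and -0.33 in saline, -1.02, -0.72 and -0.21 in acute and -1.02, -0.69 and -0.20 in chronic rats, and Kcnj4 over -2.49, -1.12 and -0.35, -1.47, -1.05 and -0.62, and -1.30, -0.87 and -0.42. The groups overlapped throughout, saline replicate 4 was lowest in both genes, and differences were 0.25 and 0.26 (SE 0.18) for Kcnj2 and 0.23 and 0.31 (SE 0.25) for Kcnj4. The GIRK genes Kcnj3, Kcnj6 and Kcnj9 encode channels opened by G protein-coupled receptors such as the D2 receptor. In acute and chronic rats Kcnj3 differed by -0.03 and -0.16 (SE 0.23), Kcnj6 by 0.07 and 0.25 (SE 0.26) and Kcnj9 by -0.21 and 0.12 (SE 0.24). Kcnj6 was lowest in chronic replicate 8 at -6.73 and highest in chronic replicate 6 at -3.81, so that 1 group held both ends. These arrays were averaged into 1 unit, so the SE of Kcnj6 does not hold that range. The SD over the 8 chronic arrays was 0.93. For the ATP-sensitive channel pores, Kcnj11 differed by -0.005 and 0.10 (SE 0.14) and Kcnj8, found mainly in vessels, by 0.09 and -0.06 (SE 0.16).

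Of the 9 leak pore genes, 6 had a higher acute and 4 a higher chronic mean. Kcnk16 had levels of -6.11, -4.02 and -2.44 in saline, -6.45, -3.95 and -2.87 in acute and -6.27, -5.23 and -3.15 in chronic rats, a range shared by all groups. Its chronic difference of -1.05 (SE 0.52, 95% interval -2.14 to 0.03, limma adjusted p = 1.00) was the largest of the 74 and was -0.84, -2.32 and 0.93 within the slides. The highest Kcnk16 levels were those of saline replicates 5, 4 and 3 (-2.44, -2.75 and -3.05), acute replicate 4 (-2.87) and chronic replicate 8 (-3.15). All but the acute one were also the arrays of high Kcne2, and the part of choroid plexus tissue in this difference was not tested. Kcnk2, a mechanosensitive leak channel gene, stood at 0.92, 1.59 and 2.15 in saline, 1.39, 1.91 and 2.05 in acute and 0.98, 1.64 and 1.95 in chronic rats, with differences of 0.25 and 0.02 (SE 0.18). Kcnk1, a weakly conducting leak channel gene, ran over 0.96, 1.14 and 1.45 in saline, 1.03, 1.18 and 1.58 in acute and 0.92, 1.17 and 1.56 in chronic rats, with differences of 0.01 and -0.02 (SE 0.08). The other Kcnk1 probe, shown above, gave 0.40 (SE 0.11, limma adjusted p = 1.00 over all kept probes) for chronic against saline and 0.36 (SE 0.11) for chronic against acute. Across 24 arrays the 2 Kcnk1 probes correlated at r = -0.30, so the value depends on the probe.

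Many potassium channel genes moved between arrays with markers of tissue and cell types. The slope of each gene on the level of a marker list was estimated over 18 units with the 3 groups in the model (limma, adjusted over all genes). The slope is the change in log2 level per log2 unit of list level, and gene and list share the array and its scaling. In bulk tissue, fewer cells of a type and less RNA per cell cannot be told apart. Slopes passed for 1 gene on the choroid plexus list (0.0526% of all genes passed), 11 on the cortical excitatory neuron list (3.25%), 17 on the thalamus and septum list (4.68%), 1 on the oligodendrocyte list (1.15%) and 17 on the striatal projection neuron list (5.01%). On the astrocyte list 0 genes passed (0.00957%) and on the vascular list 0 (1.5%). On the cortical and choroid plexus levels, saline replicate 5 and chronic replicate 8 lay farther out than saline replicate 4. Each of these was averaged with another array, and so could not stand apart as a unit, while saline replicate 4 was not averaged. As a unit, saline replicate 4 was the farthest from the median on 6 of these 7 lists, so the lists are also described without it. Then 1 gene passed on the choroid plexus list (0.0479% of all genes), 1 on the oligodendrocyte list (0.335%), 0 on the astrocyte list (0%) and 2 on the vascular list (6.43%).

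The choroid plexus gene was Kcne2, with a slope of 0.51 (SE 0.03, adjusted p = 1.12e-06), 0.51 without saline replicate 4, and 0.50, 0.56 and 0.59 within the slides. Its other probe gave 0.30 (SE 0.05). Ttr, the defining transcript of this epithelium, ran from -5.62 to 6.28 over the arrays. Kcne2 thus rose on the arrays with high choroid plexus markers in both saline and chronic groups, and their part in its group differences was not tested beyond the covariate values above.

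**Figure D4:**
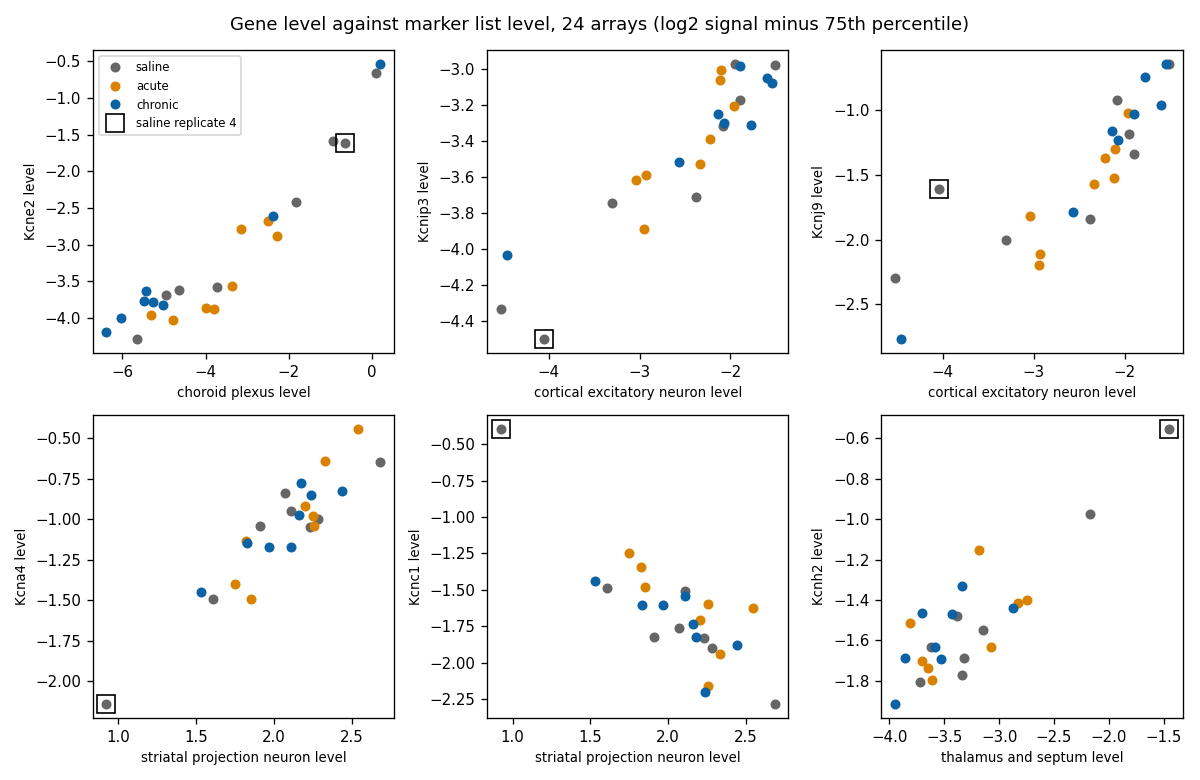
Level of 6 potassium channel genes (vertical axes) against the level of a marker list (horizontal axes) on 24 arrays, coloured by group, both as log2 signal minus the 75th percentile of the array. Kcne2, Kcnip3, Kcnj9, Kcna4 and Kcnh2 rise and Kcnc1 falls with the list shown. The square marks saline replicate 4, which is at an end of both axes for Kcna4, Kcnc1 and Kcnh2 and has the lowest Kcnip3 level.

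On the cortical excitatory neuron level (11 of 12 markers measured), which ran from -4.53 to -1.51 over saline, -3.04 to -1.96 over acute and -4.46 to -1.54 over chronic arrays, all 11 slopes were positive and all 11 were positive within each slide. Over all genes, 437 of the 680 slopes past the threshold were positive. Kcnip3, a KChIP that is also a calcium-dependent transcriptional repressor, had a slope of 0.49 (SE 0.05, adjusted p = 5.58e-05), and its other probe, which overlaps the first in sequence, 0.45. Kcnh7, an erg-type gene, had 0.53 (SE 0.07), the mechanosensitive leak gene Kcnk4 0.57 (SE 0.09), Kcns3 0.70 (SE 0.12), the GIRK gene Kcnj9 0.50 (SE 0.09) and Kcnk12, a leak gene whose subunit is largely silent, 0.54 (SE 0.10). These 6 passed also without saline replicate 4, where their slopes were 0.42 (Kcnip3), 0.53 (Kcnh7), 0.60 (Kcnk4), 0.99 (Kcns3), 0.65 (Kcnj9) and 0.73 (Kcnk12). Kcnj6 passed in both fits, with 0.47 (SE 0.12) and 0.73 (SE 0.09), while Kcns1, Kcnab2, Kcnf1 and Kcnn1 passed only with that array (adjusted p of 0.088, 0.084, 0.22 and 0.088 without it). Kcnc2 and Kcnc4 passed only without it, which made 9 in all, where 2.24% of all genes passed.

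On the striatal projection neuron level (17 of 18 markers measured), which ran from 0.92 to 2.69 over saline, 1.75 to 2.54 over acute and 1.53 to 2.44 over chronic arrays, 12 slopes were positive and 5 negative, and 16 kept their sign within all 3 slides. Over all genes, 682 of the 1046 slopes past the threshold were positive. Kcna4, a rapidly inactivating A-type pore, had the steepest positive slope, 0.95 (SE 0.10, adjusted p = 5.75e-05), from -2.14 on saline replicate 4 to -0.44 on acute replicate 1. Kcnab1, whose beta subunit speeds inactivation of Shaker-type channels, had 0.90 (SE 0.12), the rectifier gene Kcnj2 0.78 (SE 0.12), Kcnip2 0.78 (SE 0.14), Kcnk2 0.75 (SE 0.13), the elk-type gene Kcnh4 0.70 (SE 0.11) and Kcnt1 0.56 (SE 0.09). The negative slopes were -0.91 (SE 0.12) for Kcnc1 and -0.86 (SE 0.19) for Kcnc2, both of fast-spiking interneurons, -0.66 (SE 0.16) for Kcnd3, -0.82 (SE 0.21) for Kcnmb2, a BK beta subunit gene, and -2.24 (SE 0.52) for Kcnj16. Without saline replicate 4, Kcna4 (0.94), Kcnab1 (1.04), Kcnip2 (1.11), Kcnj2 (0.88), Kcnk2 (0.87) and Kcnt1 (0.71) still passed, and the other 11 kept their sign but not the threshold, as the share of all genes that passed fell to 1.31%. A list of interneuron markers (9 measured) mixes GABA markers with Chat, Slc5a7 and Lhx8, which mark cholinergic cells. Its level was highest on saline replicate 4 as well, at 0.31, and its part in the negative slopes was not tested.

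On the thalamus and septum level (9 of 10 markers measured; -3.72 to -1.45 over saline, -3.81 to -2.74 over acute and -3.95 to -2.87 over chronic arrays), 7 slopes were positive and 10 negative, and none passed without saline replicate 4, whose level was the highest. The share of all genes fell from 4.68% to 0.067% without that array. All 17 kept their sign without it, and 11 had it within all 3 slides. Kcnh2, the erg-type pore, had 0.50 (SE 0.06) with and 0.39 (SE 0.10) without that array, and Kcnj16 1.80 (SE 0.24) and 1.72 (SE 0.41), while Kcnv1 moved from -0.69 (SE 0.10) to -0.27 (SE 0.12). Kcnip1 had 0.46 (SE 0.08) and Kcnd3 0.50 (SE 0.09). Kcnj16 and Kcnj2, whose probes lie close together on chromosome 10, had slopes of opposite sign on the striatal level, -2.24 and 0.78, but without saline replicate 4 that of Kcnj16 was -1.31 and did not pass. Kcnj16 was highest on saline replicate 4 (-1.79) and Kcnj2 lowest on it (-1.60).

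**Figure D5:**
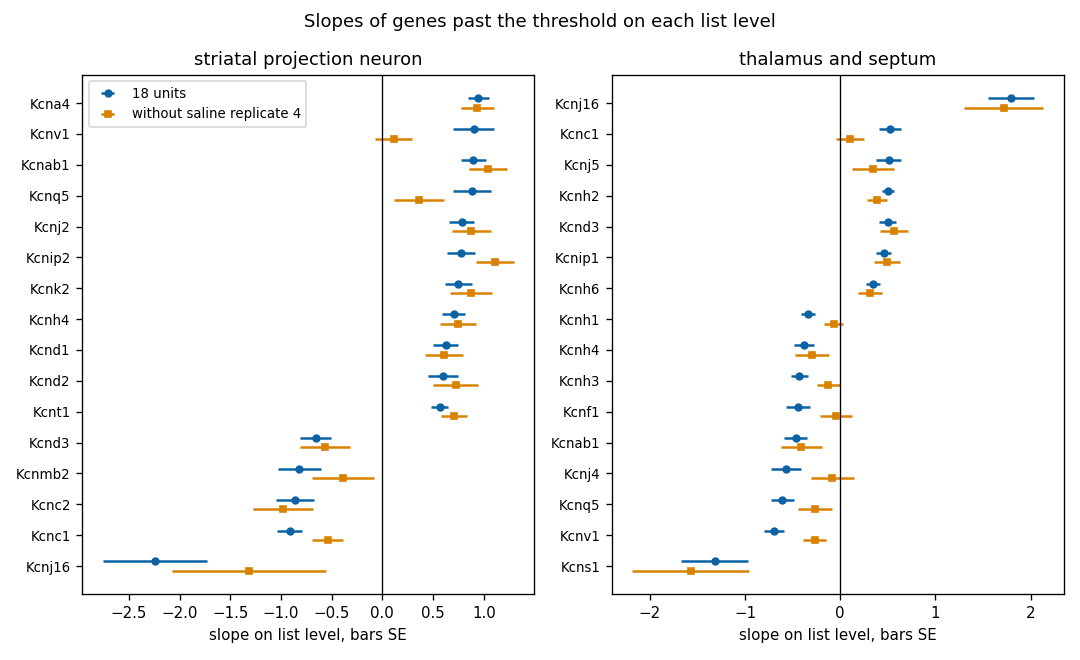
Slopes on the striatal projection neuron level (left) and the thalamus and septum level (right) of 16 genes past the threshold on each, in log2 units per log2 unit of list level with SE bars. Circles are all 18 units and squares 17 without saline replicate 4, and Kcnv1, Kcnq5, Kcnc1 and Kcnj4 are among those that move most toward 0.

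Upstream sequences are shown for genes that moved together, Kcnip3 and Kcnh7 with the cortical list and Kcna4 and Kcnj2 with the striatal list. Each is the 250 bases before the RefSeq start in assembly GRCr8 on the gene's strand, at chr3:135195411-135195660 (minus), chr3:68230672-68230921 (minus), chr3:114215086-114215335 (plus) and chr10:96559975-96560224 (plus). Capitals mark matches, on either strand, to the GC box GGGCGG or to CCAAT, 2 of 5 motifs searched.
Kcnip3: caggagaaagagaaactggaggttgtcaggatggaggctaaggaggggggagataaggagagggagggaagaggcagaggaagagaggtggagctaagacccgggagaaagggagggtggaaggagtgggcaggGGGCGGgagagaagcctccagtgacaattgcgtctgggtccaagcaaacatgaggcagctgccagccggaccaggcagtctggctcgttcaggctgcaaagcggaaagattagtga
Kcnh7: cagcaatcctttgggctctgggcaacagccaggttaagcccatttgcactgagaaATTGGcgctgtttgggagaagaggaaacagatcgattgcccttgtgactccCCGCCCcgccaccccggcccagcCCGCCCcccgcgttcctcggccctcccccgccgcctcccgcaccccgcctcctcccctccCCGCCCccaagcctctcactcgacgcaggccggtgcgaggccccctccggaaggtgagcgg
Kcna4: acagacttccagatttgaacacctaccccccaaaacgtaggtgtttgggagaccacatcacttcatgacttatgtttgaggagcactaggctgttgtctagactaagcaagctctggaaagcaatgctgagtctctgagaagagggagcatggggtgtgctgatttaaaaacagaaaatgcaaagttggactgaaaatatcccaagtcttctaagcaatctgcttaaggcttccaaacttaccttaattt
Kcnj2: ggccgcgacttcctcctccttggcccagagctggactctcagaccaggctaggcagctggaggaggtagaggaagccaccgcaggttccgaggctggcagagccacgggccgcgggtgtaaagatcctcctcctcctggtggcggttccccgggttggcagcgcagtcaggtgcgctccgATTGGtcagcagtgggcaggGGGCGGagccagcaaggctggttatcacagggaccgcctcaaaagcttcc

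The RefSeq table held an upstream window for 50 of the 74 genes, 55 windows in all. The GC box was in 28 of these (50.9%, against 30.5% of all 33469 windows), CCAAT in 12 (21.8%, against 34.0%) and the E-box CACGTG in 1, that of Kcnh4 (1.82%, against 5.59%). TATAAA and the cyclic AMP response element TGACGTCA were in 0 of 55, against 12.9% and 1.59% of all windows. By list, the GC box was in 7 of 10 windows of genes with positive cortical slopes and in 4 of 11 with positive striatal slopes. None of the 5 motifs contains another, and a match describes letters only.

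Of the 22 listed partner genes of potassium channels that are not channel pores themselves, 21 were measured, and 0 passed an adjusted p of 0.05 in any comparison (limma). At an unadjusted p under 0.05, 0 passed for acute and for chronic against saline and 1 for chronic against acute. It was Abcc9, the sulfonylurea receptor that joins Kcnj8 in vascular ATP-sensitive channels, higher in chronic than in acute rats by 0.56 (SE 0.19). Acute means exceeded saline means for 10 of 21 partners, chronic means exceeded saline means for 13, and chronic means exceeded acute means for 16.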

How the data were processed

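Per the labels, total RNA was extracted with Trizol and labelled with Cy3 for 24 one-colour Agilent arrays. Per the file headers, the deposited processed signal is a background-subtracted intensity with no normalization between arrays, made with Agilent Feature Extraction (version 10.7 per the submitters' processing notes). The authors' value table holds log2 values, whose method is not given in the sources used here and which rank as the processed signals do. Each array was scaled by subtracting, on the log2 scale, the 75th percentile of all its own non-control spots. Spots marked uneven or outlier were left out after this scaling. Among the genes tested 117 values were missing, 0 of them among the potassium channel genes. Of 45598 probes 26259 were kept, with the gene's highest-mean probe in use.

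Groups were taken from the treatment labels. Group differences and slopes came from limma 3.58.1 in R 4.3.3 (eBayes, Benjamini-Hochberg adjustment over all genes, threshold 0.05), tested on simulated data. The 3 groups shared 1 estimate of the spread. The members and lists were chosen with earlier results of these data known. Genes named are the 5 smallest p per direction and comparison, the 10 largest and 5 smallest SDs, up to 6 per marker list and a list given whatever its values. Other genes appear by counts, apart from Kcnn1 and Kcnmb2, named after their values were seen. Some genes that this rule names are not reported here. Alternatives covered scaling, background, filters, probes, the unit, the slide and each unit left out. Those with 3 arrays left out or a marker level as covariate were chosen after seeing the data. Sequences are from the scanner files and RefSeq (GRCr8). All 74 genes matched RefSeq, 64 by accession and 10 by symbol.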

Additional observations from a re-analysis of the deposited data

Results flagged for a closer look

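In groups of 6 units, 22 of 222 combinations of gene and group (9.91%) had 1 unit whose gap to its nearest neighbour exceeded Dixon's 95% critical share of the group's range, where chance gives about 5% and the share over all genes was 8.09%. Saline replicate 4 was that unit in 10 of them (45.5%), against 15.3% of the flagged combinations over all genes. Of the genes given here, it was high for Kcnc1 (-0.39), Kcnd3 (-1.18), Kcnip1 (1.33) and Kcnj16 (-1.79). It was low for Kcnf1 (-4.34), Kcnh1 (-0.36), Kcnh3 (0.56), Kcnq5 (-5.70) and Kcnv1 (-3.07). Chronic replicate 4 was low for Kcnab1 (1.27) and Kcnip2 (3.06). Chronic replicate 7 was high for Kcna1 (1.96) and Kcng3 (-2.50). Single values apart were also those of saline replicate 7 for Kcna2 (-1.04), acute replicate 3 for Kcnj3 (-0.98), acute replicate 5 for Kcnt2 (-4.52) and chronic replicates 6 and 8, averaged, for Kcnh1 (0.42). Saline replicate 5, like chronic replicate 8, entered only as part of an average and could not be flagged alone.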

How the results depend on the processing

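No potassium channel gene passed the adjusted threshold between groups under any alternative. Beside the median differences given above, the acute minus saline median was -0.061 on slide 1 alone and -0.036 on slide 2 alone, and the chronic minus acute median was 0.12 on slide 2 alone. With each unit left out the 3 medians lay at 0.009 to 0.088, 0.017 to 0.075 and -0.009 to 0.018. Counts of slopes past the threshold moved more, with the share of all genes in brackets. With 24 independent arrays they were 2 on the choroid plexus list (1.36%), 22 cortical (11%), 0 oligodendrocyte (1.45%), 26 striatal (7.75%) and 12 vascular (30.9%), and with slide as a block 4 choroid plexus (1.42%), 21 cortical (8.49%), 10 thalamus and septum (4.08%) and 12 vascular (29.8%). Without the 2 units farthest from the median they were 5 cortical (0.574%), 0 thalamus and septum (0.0479%), 0 oligodendrocyte (0%) and 4 striatal (1.42%). With each unit left out they ranged over 8 to 14 cortical (2.24% to 4.04%), 0 to 19 thalamus and septum (0.067% to 5.18%), 0 to 1 oligodendrocyte (0.153% to 1.37%), 6 to 21 striatal (1.31% to 5.58%) and 0 to 2 vascular (0.00479% to 6.43%, with 2 genes without saline replicate 3 or 4). The cause was not tested. No paired analysis was possible because replicate numbers follow the order of the samples and pair nothing. Of the 74 genes, 55 were well above background on all arrays.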
